A study of Macaca mulatta with 20 samples.

Results

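Cytotoxic lymphocytes, the natural killer (NK) cells and cytotoxic T cells of the blood, carry granules whose contents kill a target cell on contact. The genes described here encode 10 proteins of that machinery: perforin (PRF1), the granzymes A, B, H, K and M (GZMA, GZMB, GZMH, GZMK and GZMM), granulysin (GNLY), cathepsin W (CTSW), the granule membrane protein NKG7 and the death ligand FASLG. A gene entered when a non-control probe carrying its name was well above background on at least 5 of the 20 arrays. All 10 genes met this with 1 probe each, that is 10 of the 19961 probes that passed the same filter and 10 of 15929 genes. Another GNLY probe was well above background on only 3 arrays and was left out, so 10 of the 11 probes of these genes on the array were used.

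Blood came from male Rhesus macaques (Macaca mulatta, here non-human primates, NHP) of Chinese genetic origin, adolescent to adult, which all received 10 Gy of X-rays to the thoracic region. The 5 pre-irradiation samples were drawn 3 days before the exposure, and 5 samples each at day 2, day 5 and day 30 after it. Animals of every group were the same irradiated cohort of 8 NHP, so each sample serves as a time point and no group was sham irradiated. In 1 sample, which the labels do not name, RNA of 2 animals was pooled. Whole blood RNA was depleted of globin transcripts and hybridized to Agilent human arrays, so that every probe carries human sequence.

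Perforin opens the target membrane and lets granzymes in, which are serine proteases that cleave proteins inside the target cell. Granulysin damages membranes of microbes and of target cells, and NKG7 takes part in granule release. FASLG works apart from the granule proteases, by binding the receptor FAS on the target and starting caspase cleavage. In blood these genes are expressed mainly by NK cells, cytotoxic CD8 T cells and some gamma-delta T cells, with GZMK more typical of a memory CD8 T cell subset and GZMB, GZMH, PRF1 and GNLY of effector and NK cells.

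Because macaque RNA was read with human probes, the sequence that did the reading is part of the measurement. The probes of 5 members, PRF1, GZMK, GZMM, GNLY and CTSW, are given below as the array files list them, 5′ to 3′, in lower case with no base set apart.
PRF1: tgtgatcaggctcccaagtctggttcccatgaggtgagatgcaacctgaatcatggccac
GZMK: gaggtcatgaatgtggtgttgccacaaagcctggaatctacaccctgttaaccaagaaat
GZMM: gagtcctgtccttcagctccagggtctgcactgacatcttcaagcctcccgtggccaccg
GNLY: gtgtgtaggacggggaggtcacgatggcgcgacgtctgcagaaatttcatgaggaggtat
CTSW: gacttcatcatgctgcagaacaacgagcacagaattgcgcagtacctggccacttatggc
In hg19, the build of the array files, these lie at chr10:72357929-72357988 (PRF1, minus strand), chr5:54329648-54329707 (GZMK, plus strand), chr19:549679-549738 (GZMM, plus strand), chr2:85924656-85924715 (GNLY, plus strand) and chr11:65650345-65650568 (CTSW, plus strand). All 5 probes hold 60 bases, and that of CTSW spans 224 genomic bases, so that it does not lie in 1 unbroken stretch of the genome. Their share of G and C ran from 45% in GZMK to 61.67% in GZMM. Hybridization of a human probe differs from gene to gene with its match to the macaque transcript, which was not examined. For that reason a higher level of 1 gene than of another was not read as more RNA. Where levels of genes are ranked or averaged below, the values describe probe signal only. GZMB and GZMH are close paralogs that neighbour each other on chromosome 14, and how far macaque transcripts of one bind the probe of the other was not tested.

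A level below is the log2 of the background-subtracted signal minus the 75th percentile of the same array, and a log2 change is the mean difference of levels within the 5 pairs of arrays that share a replicate number. The labels do not name the animal behind a replicate number. A starting level below is therefore that of the pre-irradiation array with the same number. A probe was called when limma gave p under 0.005 and a Benjamini-Hochberg false discovery rate under 10% over all 19961 probes. Between 50.9% and 58.8% of spots were well above background on 19 arrays. The day 5 replicate 3 array stood apart at 67.3%, and results that it changes are given without it as well. No member probe was saturated on any array, and 9 of the 10 were well above background on all 20 arrays. FASLG missed that mark on 1 day 2 array. The 5 slides each held 1 array of every group, so slide and time point were not confounded.

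At day 2 all 10 granule genes were lower than before irradiation. The median log2 change over the members was -1.31, against -0.023 over all probes, and single genes lay between -1.86 for GZMA and -0.84 for CTSW. GZMA and GZMH had day 2 signals 3.64 and 3.63 times below their pre-irradiation signals, FASLG 2.93 times, PRF1 2.65 times and GZMK 1.97 times. None of the 10 was called in the limma fit, where 0.0551% of all probes were (11 of 19961), since their adjusted p values ran from 0.114 to 0.216. Unadjusted, all 10 had p under 0.05 and were lower, a state that 5.92% of all probes shared, and a paired test run probe by probe without pooled spread also called 0. Whole blood RNA cannot tell fewer cytotoxic cells apart from less of these RNAs in each cell.

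The pore former PRF1 had pre-irradiation levels of 0.71, -0.43, 1.04, 0.75 and 0.74 in replicates 1 to 5, and day 2 levels of -0.48, -0.68, -0.78, -0.63 and -1.63. All day 2 arrays lay below all pre-irradiation arrays, although the pre-irradiation array of replicate 2 lay far below the others and its pair differed least. The log2 change of PRF1 was -1.40 ± 0.28 (SE, adjusted p = 0.141).

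Among the granzymes, GZMA, a tryptase that cleaves nuclear proteins, had levels of -0.94, 0.12, -0.69, -0.69 and 0.62 before irradiation and -2.68, -1.02, -2.74, -1.94 and -2.52 at day 2. Its log2 change was -1.86 ± 0.29 (SE, adjusted p = 0.114), with all 5 pairs lower and no overlap between the groups. GZMK, the other tryptase, stood at 2.48, 2.13, 2.71, 1.83 and 2.08 before and at 1.44, 1.53, 1.36, 0.87 and 1.16 at day 2. For GZMK every pair lay between -1.35 and -0.60, and its log2 change was -0.98 ± 0.16 (SE, adjusted p = 0.123).

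GZMB, the granzyme that activates caspases, had pre-irradiation levels of 6.08, 5.79, 6.78, 6.33 and 6.70 and day 2 levels of 5.76, 5.10, 5.27, 5.07 and 4.20. GZMH, its neighbour in the genome, had levels of 6.61, 5.98, 7.12, 6.11 and 6.59 and then 5.52, 5.15, 5.04, 4.56 and 2.85. For both, the replicate 5 array at day 2 was the lowest by far, and neither pair of groups overlapped. The log2 change was -1.26 ± 0.30 (SE, adjusted p = 0.176) for GZMB. That of GZMH was -1.86 ± 0.39 (SE, adjusted p = 0.15).

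GZMM, a granzyme that cuts after methionine, was at 3.31, 1.65, 2.99, 2.86 and 2.72 before irradiation and at 1.82, 1.69, 1.69, 2.27 and 1.38 at day 2. In replicate 2 the level of GZMM was nearly the same at both times (log2 difference 0.039), while the other 4 pairs were lower, and the groups overlapped. Its log2 change was -0.94 ± 0.24 (SE, adjusted p = 0.189). The smallest difference of the 10 belonged to CTSW, a cysteine protease of cytotoxic cells, with levels of -0.39, -0.88, 0.36, 0.25 and 0.022 before and -1.45, -0.61, -0.93, -0.49 and -1.37 after, again with replicate 2 against the other 4 pairs. The log2 change of CTSW was -0.84 ± 0.25 (SE, adjusted p = 0.216).

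Granulysin (GNLY) levels were 5.20, 3.60, 4.87, 5.05 and 5.03 before irradiation and 3.85, 3.12, 3.35, 3.63 and 3.18 at day 2. Every pair was lower, but the groups overlapped because the pre-irradiation array of replicate 2 lay within the day 2 range. The log2 change of GNLY was -1.32 ± 0.21 (SE, adjusted p = 0.114). NKG7 levels were 3.44, 2.92, 4.67, 2.9996 and 3.68 and then 2.19, 2.82, 2.75, 1.87 and 1.57, with all pairs lower and no overlap. For NKG7 the log2 change was -1.30 ± 0.29 (SE, adjusted p = 0.158).

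FASLG stood at -1.34, -1.90, -1.16, -1.63 and -1.47 before irradiation and at -2.44, -2.95, -3.50, -3.33 and -3.04 at day 2. The ranges did not overlap, and by p-value FASLG ranked 14th among all probes. Its log2 change was -1.55 ± 0.21 (SE, adjusted p = 0.114).

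In all, 8 of the 10 members were lower in each of the 5 pairs (7.43% of all probes were) and 7 had groups that did not overlap in the lower direction (0.967% of all probes). All 10 were also lower at day 2 on each of the 5 slides when the arrays were compared within a slide. Replicate 5 was the lowest day 2 array for 5 members and replicate 2 the lowest pre-irradiation array for 8. By pair, the median of the 10 log2 differences was -1.14, -0.54, -1.67, -1.26 and -1.98 in replicates 1 to 5, so that it was largest in size in replicate 5 and smallest in replicate 2. With replicate 2 left out, 9 of the 10 members were called, in a fit that called 3.41% of all probes, and none was called without replicate 1, 3, 4 or 5.

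**Figure D1:**
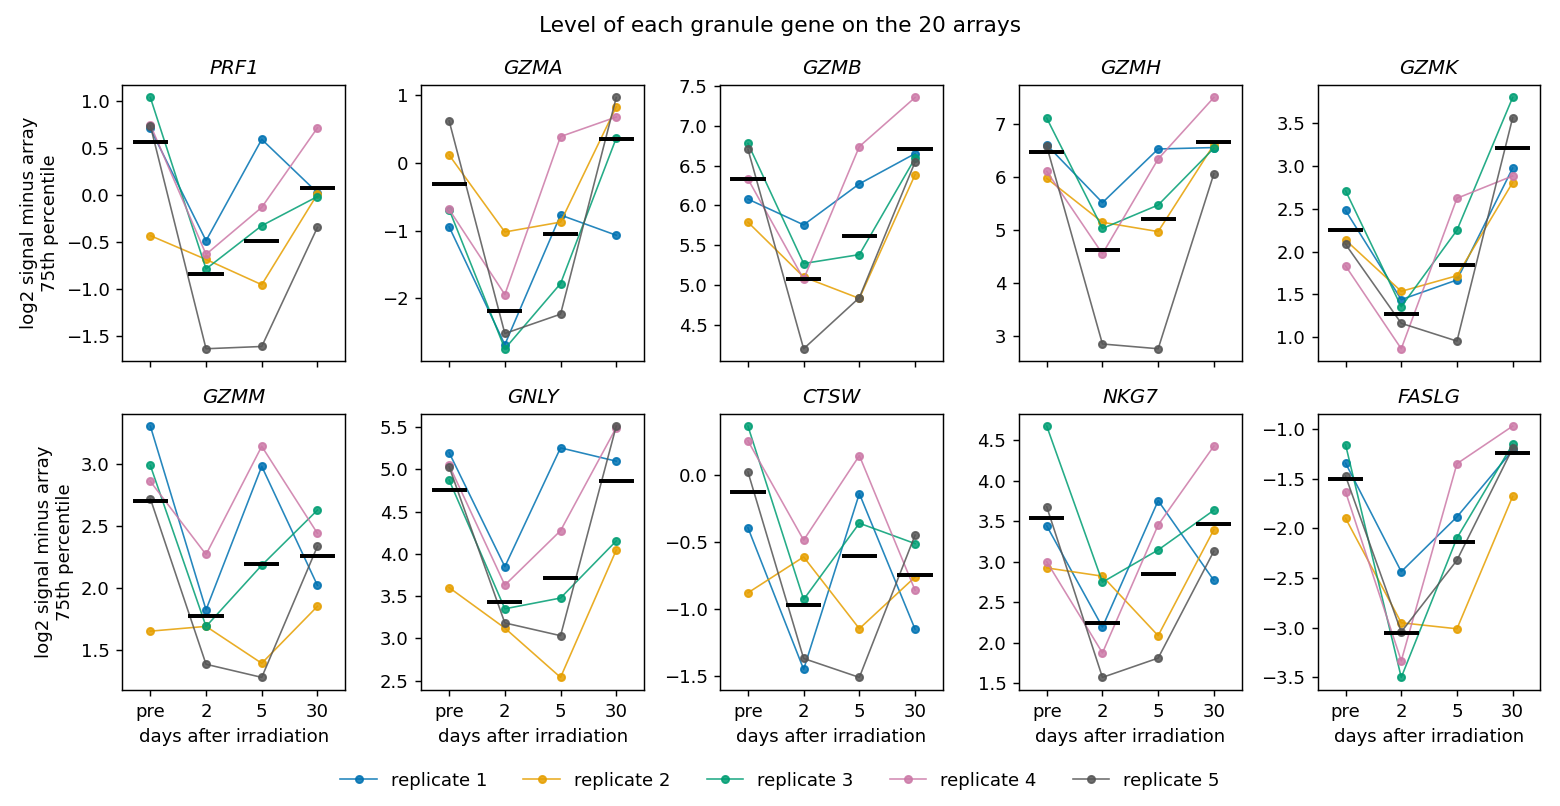
Level of each of the 10 granule genes (log2 signal minus the array's 75th percentile, y axis, own scale in each panel) before irradiation and at days 2, 5 and 30 (x axis), with 1 point per array, lines joining arrays of the same replicate number and a black bar at the mean of 5 arrays. All 10 means were lower at day 2 than before irradiation, and the day 5 arrays spread widest, from 2.76 to 6.54 for GZMH.

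The size of the change depended on how background was removed. Under the normexp correction in place of the deposited background subtraction, the day 2 log2 change was -0.18 for FASLG, -0.59 for GZMA, -0.34 for CTSW and -0.92 for PRF1, the 4 members whose signals lay nearest to background. The limma adjusted p was then 0.586 for FASLG, 0.362 for CTSW and 0.356 for the other 8 members. The other 6 members moved the other way under that correction, GZMB to -1.79, GZMH to -2.37 and GZMK to -1.16, so that the order of the members by size of change differed between the corrections. All 10 stayed lower, and the median over the members was -1.16. The count of members at unadjusted p under 0.05 in the limma fit fell from 10 to 7. FASLG, CTSW and GZMA no longer met that limit, so the count of 10 depended on the background correction.

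At day 5 the 10 genes were still lower on average, but the pairs parted. The median log2 change from pre-irradiation was -0.71 over the members and 0.023 over all probes. None of the 10 was called, nor was any other probe (0% of all), and 4 members, PRF1, GZMH, GNLY and FASLG, were lower at unadjusted p under 0.05, against 4.15% of all probes. That count depended on single replicates: it was 7 without replicate 1, 9 without replicate 4 (median -0.99) and 2 without replicate 2, 3 or 5, the median without replicate 5 being -0.42. It also moved with the processing, to 8 under median scaling, 6 with slide as a block and 1 in the paired test run probe by probe. By pair, the median of the 10 differences was -0.0098, -0.90, -1.23, 0.28 and -1.86 in replicates 1 to 5. In this median replicates 1 and 4 lay near or above their own starting levels, and replicates 2, 3 and 5 lay below.

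GZMH showed the widest spread, with day 5 levels of 6.54, 4.98, 5.48, 6.35 and 2.76 in replicates 1 to 5 and an SD of 1.51, against 0.45 before irradiation. On the replicate 5 array GZMH was as low as at day 2, while the replicate 1 array lay near its starting level. The log2 change of GZMH was -1.26 ± 0.54 (SE, adjusted p = 0.433). PRF1 was the 1 member that was lower in all 5 pairs (6.13% of all probes were), by -0.12, -0.52, -1.36, -0.88 and -2.35, and its log2 change was -1.05 ± 0.31 (SE, adjusted p = 0.33).

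For GNLY the day 5 levels were 5.25, 2.54, 3.48, 4.27 and 3.03, and its log2 change was -1.03 ± 0.28 (SE, adjusted p = 0.321). The replicate 1 array of GNLY lay near its starting level and the other 4 pairs were lower. FASLG had day 5 levels of -1.88, -3.01, -2.10, -1.35 and -2.32 and a log2 change of -0.63 ± 0.22 (SE, adjusted p = 0.373). GZMA ran from a pair difference of -2.85 in replicate 5 to 1.07 in replicate 4, and its log2 change had an interval of -1.88 to 0.41. The other 5 members had log2 changes between -0.72 (GZMB) and -0.41 (GZMK), with intervals that all held 0. No member had pre-irradiation and day 5 groups free of overlap (0.301% of all probes did, in the lower direction). With the day 5 replicate 3 array left out, the median log2 change over the members was -0.55 and 2 members were at unadjusted p under 0.05.

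**Figure D2:**
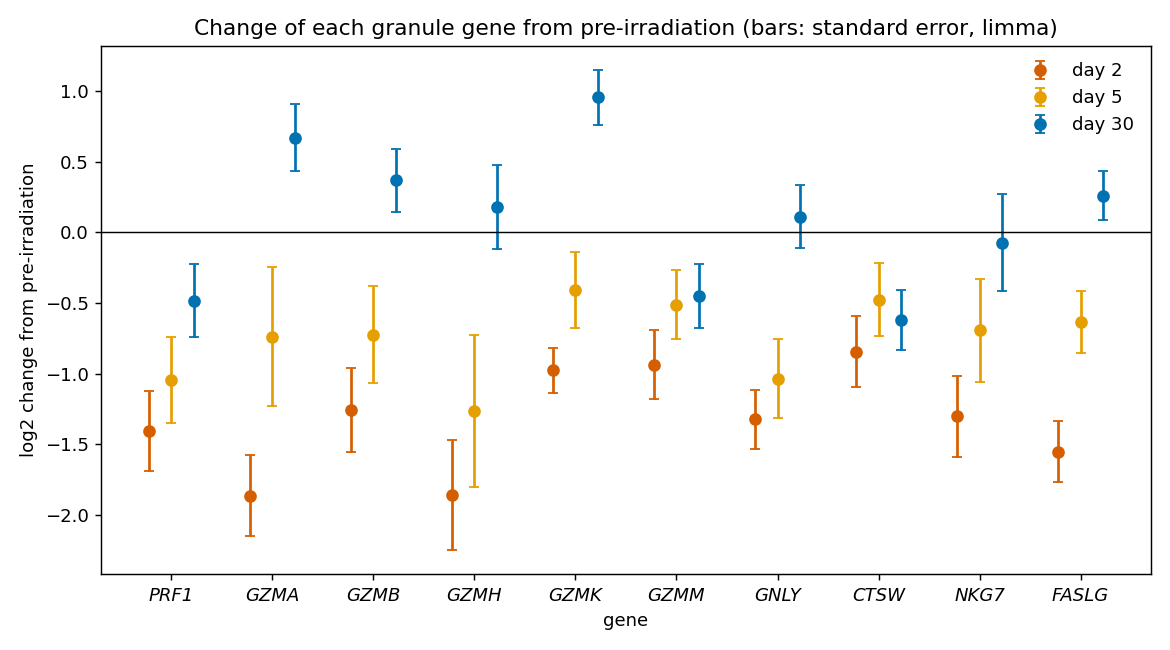
Log2 change of each granule gene from pre-irradiation (y axis) at day 2, day 5 and day 30, as the mean of 5 pairs with the limma standard error as bars. All day 2 points lie between -1.86 and -0.84, and at day 30 the points spread to both sides of 0, from -0.62 for CTSW to 0.96 for GZMK.

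At day 30 the members lay on both sides of their starting levels. The median log2 change from pre-irradiation was 0.14, against 0.0053 over all probes, with 6 members higher and 4 lower. None was called (0.02% of all probes were), 2 were higher and 1 lower at unadjusted p under 0.05, where 8.58% and 8.97% of all probes were, so the members' share lay near that of the array as a whole.

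GZMK was above its starting level, at 2.97, 2.80, 3.80, 2.88 and 3.56 on the day 30 arrays against a pre-irradiation range of 1.83 to 2.71. The 2 groups did not overlap, as in 1.09% of all probes in this direction, and GZMK was higher in all 5 pairs and on all 5 slides. Its signal was 1.94 times that before irradiation, a log2 change of 0.96 ± 0.19 (SE, adjusted p = 0.128). GZMK passed both thresholds under the normexp correction (adjusted p = 0.055), where 4.5% of all probes were called. It also passed among probes well above background on all arrays (adjusted p = 0.0626), where 4.21% were. It was not called under quantile normalization or median scaling, with slide as a block or with any replicate left out.

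GZMA was next, with day 30 levels of -1.07, 0.83, 0.36, 0.68 and 0.96 and a log2 change of 0.67 ± 0.24 (SE, adjusted p = 0.218). Replicate 1 of GZMA stayed just under its starting level and the other 4 pairs were higher. FASLG was higher in all 5 pairs (8.36% of all probes were), by 0.13, 0.22, 0.0052, 0.66 and 0.28, a small shift with a log2 change of 0.26 ± 0.17 (SE, adjusted p = 0.462). GZMB was higher in 3 of 5 pairs, with a log2 change of 0.37 ± 0.22 (SE, adjusted p = 0.424).

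CTSW had the most negative change. Its day 30 levels were -1.15, -0.76, -0.51, -0.86 and -0.45, lower than at the start in 4 of 5 pairs, with a log2 change of -0.62 ± 0.21 (SE, adjusted p = 0.207). PRF1 had day 30 levels of 0.028, 0.013, -0.013, 0.72 and -0.34, of which only that of replicate 2 lay clearly above its starting level, and a log2 change of -0.48 ± 0.26 (SE, adjusted p = 0.367). GZMM was lower in 4 of 5 pairs, with a log2 change of -0.45 ± 0.23 (SE, adjusted p = 0.337). For GZMH, GNLY and NKG7 the pairs went both ways and the mean changes were 0.18 ± 0.30, 0.11 ± 0.22 and -0.072 ± 0.35 (SE), with intervals of -0.50 to 0.86, -0.40 to 0.62 and -0.86 to 0.72.

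Between day 2 and day 30 all 10 genes were higher, 9 of them in every pair (7.62% of all probes were). GZMA and GZMK rose and were called, where 0.0451% of all probes were called higher (9 of 19961), and 9 members had unadjusted p under 0.05, against 6.03% of all probes. The median log2 change over the members was 1.53 and over all probes 0.015. Groups of 6 members did not overlap, a state found in 0.962% of all probes in the higher direction.

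In GZMA the 5 pair differences were 1.61, 1.85, 3.11, 2.62 and 3.48, and its log2 change was 2.53 ± 0.29 (SE, adjusted p = 0.0959), a signal 5.79 times that of day 2. One array of each group overlapped, the day 30 array of replicate 1 and the day 2 array of replicate 2. Under the normexp correction the change of GZMA was 1.10 and its adjusted p 0.439, and without pairing by replicate its adjusted p was 0.213, so that GZMA was not called in either. Within slides its difference ran from -0.048 to 3.65.

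GZMK had pair differences of 1.53, 1.27, 2.44, 2.02 and 2.40, a log2 change of 1.93 ± 0.21 (SE, adjusted p = 0.0959) and a signal 3.82 times that of day 2. Within slides the difference of GZMK stayed between 1.44 and 2.44, and it was called without the pairing (adjusted p = 0.0324) and under the normexp correction (adjusted p = 0.0447). Leaving out replicate 1, 3, 4 or 5 brought the adjusted p of GZMK to between 0.146 and 0.434 and ended its call, as it did for GZMA.

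FASLG missed the threshold narrowly, with pair differences of 1.22, 1.27, 2.35, 2.36 and 1.85 and a log2 change of 1.81 ± 0.22 (SE, adjusted p = 0.12). Under the normexp correction its change was 0.44. Of the remaining members, GZMH had a log2 change of 2.04 ± 0.35 (SE, adjusted p = 0.202). Those of GZMB (1.62 ± 0.25), GNLY (1.43 ± 0.25), NKG7 (1.23 ± 0.31), PRF1 (0.92 ± 0.17) and GZMM (0.48 ± 0.19, all SE) were smaller. Only CTSW stayed near its day 2 level, with 3 pairs higher and 2 lower and a log2 change of 0.22 ± 0.21 (SE, adjusted p = 0.652).

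**Figure D3:**
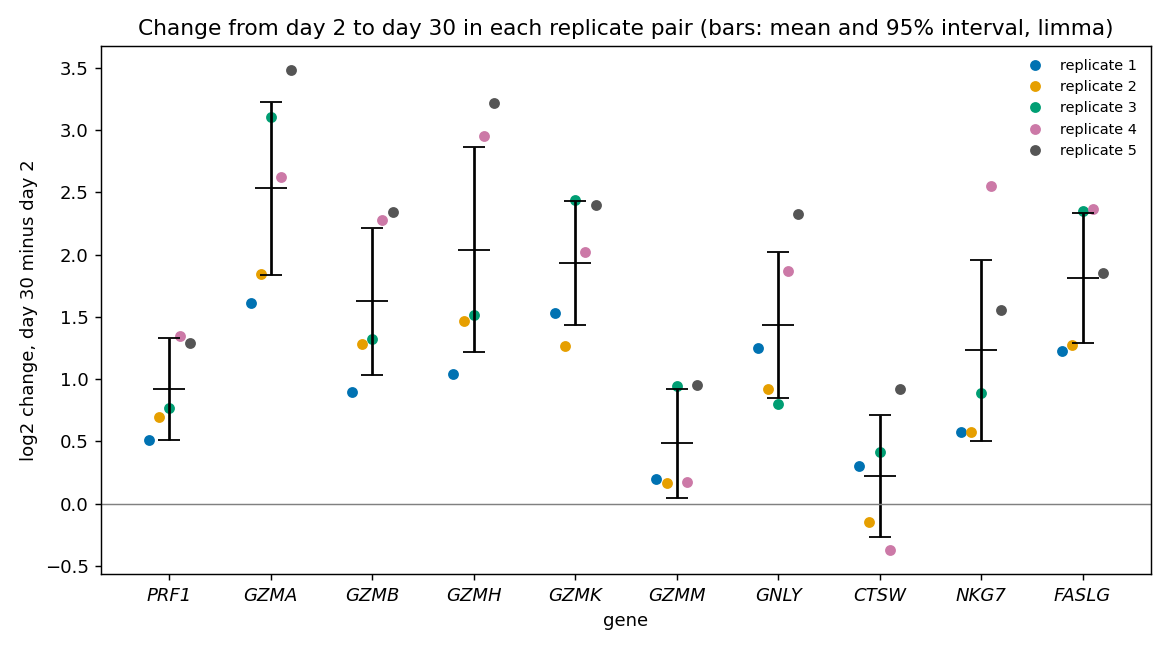
Log2 change from day 2 to day 30 (y axis) for each granule gene (x axis), with 1 coloured point per replicate pair and a black bar for the limma mean and its 95% interval. All 5 points lie above 0 for 9 genes, and for CTSW they lie on both sides, with an interval of -0.27 to 0.71.

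The step from day 2 to day 5 was smaller and uneven. All 10 members were higher on average at day 5 than at day 2, with a median log2 change of 0.55, and none was called (0% of all probes were). GZMA (1.13 ± 0.34 SE, adjusted p = 0.992) and FASLG (0.92 ± 0.29 SE, adjusted p = 0.992) were the 2 members at unadjusted p under 0.05, where 1.84% of all probes were higher. Under the normexp correction these changes were 0.18 for GZMA and -0.059 for FASLG, so that neither has a settled size and FASLG no settled direction. The median pair difference over the members was 1.12, 0.48 and 1.62 in replicates 1, 3 and 4, against -0.27 and -0.033 in replicates 2 and 5. From day 5 to day 30 the members other than CTSW and GZMM were higher on average, and none was called (0% of all probes were). At unadjusted p under 0.05, 6 members were higher, against 2.53% of all probes, or 5 without the day 5 replicate 3 array. GZMB (1.09 ± 0.24 SE, adjusted p = 0.587) and FASLG (0.89 ± 0.20 SE, adjusted p = 0.587) had the smallest p in that step, and GZMK, at 1.36 ± 0.31 (SE), was the 1 member whose groups did not overlap (0.25% of all probes in that direction). The directions of CTSW and GZMM in that last step turned with single replicates or with the scaling, and no direction is given for them.

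Over the 20 arrays the members followed a common course to different degrees. The correlation of each member's level with the mean of the other 9, given as a description over arrays that share animals and time points, was highest for GZMB (r = 0.933), GZMH (r = 0.904) and PRF1 (r = 0.89) and lowest for CTSW (r = 0.655), GZMA (r = 0.72) and GZMK (r = 0.723). After group and replicate means were taken out, GZMA (r = 0.903) and GZMH (r = 0.901) stood first and GZMK last (r = 0.57). PRF1 and GZMA, which both act in the same granule, correlated at r = 0.553 over the arrays and PRF1 and GZMH at r = 0.90.

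Outside the set, genes whose levels tracked the mean of the standardised member levels most closely, of 15355 genes, included GFI1 (r = 0.934), PCDH1 (r = 0.928), AFAP1L2 (r = 0.913), KLRD1 (r = 0.91), KLRK1 (r = 0.897), KLRC4 (r = 0.893) and ACOT11 (r = 0.888). The 99th percentile of r over all genes was 0.655. KLRD1 and KLRK1 encode CD94 and NKG2D, receptors of NK cells and cytotoxic T cells, and GFI1 is a transcriptional repressor of blood cells.

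Receptors of NK and cytotoxic T cells were lower at day 2 as well, with a median log2 change of -0.83 over 15 of 18 listed genes that could be tested. Of the 15, 11 were lower and 10 lower at unadjusted p under 0.05 (5.92% of all probes were). KLRB1, the receptor CD161, fell and was called, at -1.66 ± 0.21 (SE, adjusted p = 0.0962), where 0.0551% of all probes were called. KLRG1, an inhibitory receptor of effector cells, had a log2 change of -1.82 ± 0.29 (SE, adjusted p = 0.114), and KLRC1, which encodes NKG2A, -1.69 ± 0.34 (SE, adjusted p = 0.138). Not all NK genes followed: 4 of the 15 were higher, 2 of them at unadjusted p under 0.05 (8.91% of all probes were). The same 2 were also at unadjusted p under 0.005.

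From day 2 to day 30 the receptors KLRB1 (2.30 ± 0.26 SE, adjusted p = 0.0959), KLRC1 (1.75 ± 0.17 SE, adjusted p = 0.0959) and KLRD1 (1.45 ± 0.16 SE, adjusted p = 0.0959) rose and were called alongside GZMA and GZMK. In that comparison 0.0451% of all probes were called higher. Whether the receptor calls held under other processing was not examined. Against pre-irradiation, KLRB1 was higher at day 30, at 0.65 ± 0.17 (SE, adjusted p = 0.155), as GZMK was, while KLRC1 (0.054) and KLRD1 (-0.095) lay near 0. The median over the 15 receptors at day 30 was 0.010.

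Transcription factors that set the cytotoxic programme had a median log2 change of -0.49 at day 2 over 12 genes, with none called. Of these, 8 were lower, 7 of them at unadjusted p under 0.05 (5.92% of all probes were). Another 4 were higher, 1 of them at unadjusted p under 0.05 (8.91% of all probes were). EOMES, which drives perforin and granzyme expression, was at -1.40 ± 0.24 (SE, adjusted p = 0.125) and TBX21, its T-bet relative, at -0.97 ± 0.18 (SE, adjusted p = 0.137). At day 30 against day 2, all 12 were higher and EOMES was at 1.21 ± 0.18 (SE, adjusted p = 0.14). The 5 inhibitors of granzymes and cathepsins split: SERPINB9, the inhibitor of granzyme B, was at -0.64 ± 0.16 (SE, adjusted p = 0.181) and CST7, cystatin F of the same cells, at -0.72 ± 0.20 (SE, adjusted p = 0.207), whereas SERPINB1, a neutrophil serpin, was at 1.03 ± 0.28 (SE, adjusted p = 0.192) and CSTB at 0.55 ± 0.15 (SE, adjusted p = 0.192).

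For the general machinery of granule building and release, shared with other blood cells, the median log2 change was 0.25 at day 2 over 14 genes, with 12 higher, 4 of them at unadjusted p under 0.05 (8.91% of all probes were), and none called. Its difference from the granule genes was not tested. SRGN, the proteoglycan that packs granule cargo, was at 0.79 ± 0.24 (SE, adjusted p = 0.219), STX11 and STXBP2, which fuse granules with the membrane, at 0.57 ± 0.21 (SE, adjusted p = 0.276) and 0.60 ± 0.22 (SE, adjusted p = 0.268). CTSC, the protease that activates granzymes, was at 0.20 ± 0.22 (SE, adjusted p = 0.688) at day 2 and 0.58 ± 0.20 (SE, adjusted p = 0.217) at day 30.

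Of the cytokine axis that feeds cytotoxic cells, 11 of 13 genes could be tested, with a median log2 change of -0.17 at day 2. Of the 11, 7 were lower and 4 higher, and only 1 was lower at unadjusted p under 0.05 (5.92% of all probes were). IL2RB, the IL-2 and IL-15 receptor chain of NK cells, was at -0.84 ± 0.20 (SE, adjusted p = 0.175) and then 0.81 ± 0.20 (SE, adjusted p = 0.33) from day 2 to day 30. IFNG and IL15 did not pass the filter on dim probes. In the chemokine list, XCL1 was at -0.97 ± 0.23 (SE, adjusted p = 0.178) at day 2, and all 6 tested genes had negative changes. Among 20 targets of granzymes and death receptors, the median was 0.19 at day 2, with 7 higher at unadjusted p under 0.05 (8.91% of all probes were), among them TNFRSF10B (1.04 ± 0.31 SE, adjusted p = 0.219). FAS, the receptor of FASLG, had a log2 change of 0.61 ± 0.25 (SE, adjusted p = 0.323). No gene of these 3 lists was called in this comparison.

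All 17 T cell markers had negative log2 changes at days 2, 5 and 30 against pre-irradiation, with medians of -0.44, -0.32 and -0.54, and 9, 5 and 8 of them at unadjusted p under 0.05, against 5.92%, 4.15% and 8.97% of all probes, none called. At day 30 the granule genes had a median of 0.14, and the difference between the 2 lists was not tested. Of the 2 CD8 chains, CD8A was at -0.84 ± 0.16 (SE, adjusted p = 0.137) at day 2 and 0.66 ± 0.17 (SE, adjusted p = 0.336) from day 2 to day 30. CD8B was at -0.67 ± 0.19 (SE, adjusted p = 0.211) at day 2, 0.14 ± 0.17 (SE, adjusted p = 0.726) from day 2 to day 30 and -0.53 ± 0.24 (SE, adjusted p = 0.304) at day 30 against pre-irradiation, lower there in 5 of 5 pairs. CD4 had its larger difference at day 30, with -0.14 ± 0.16 (SE, adjusted p = 0.715) at day 2 and -0.69 ± 0.21 (SE, adjusted p = 0.173) at day 30, and so had CD3E, with -0.18 ± 0.17 (SE, adjusted p = 0.644) and -0.61 ± 0.18 (SE, adjusted p = 0.169).

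**Figure D4:**
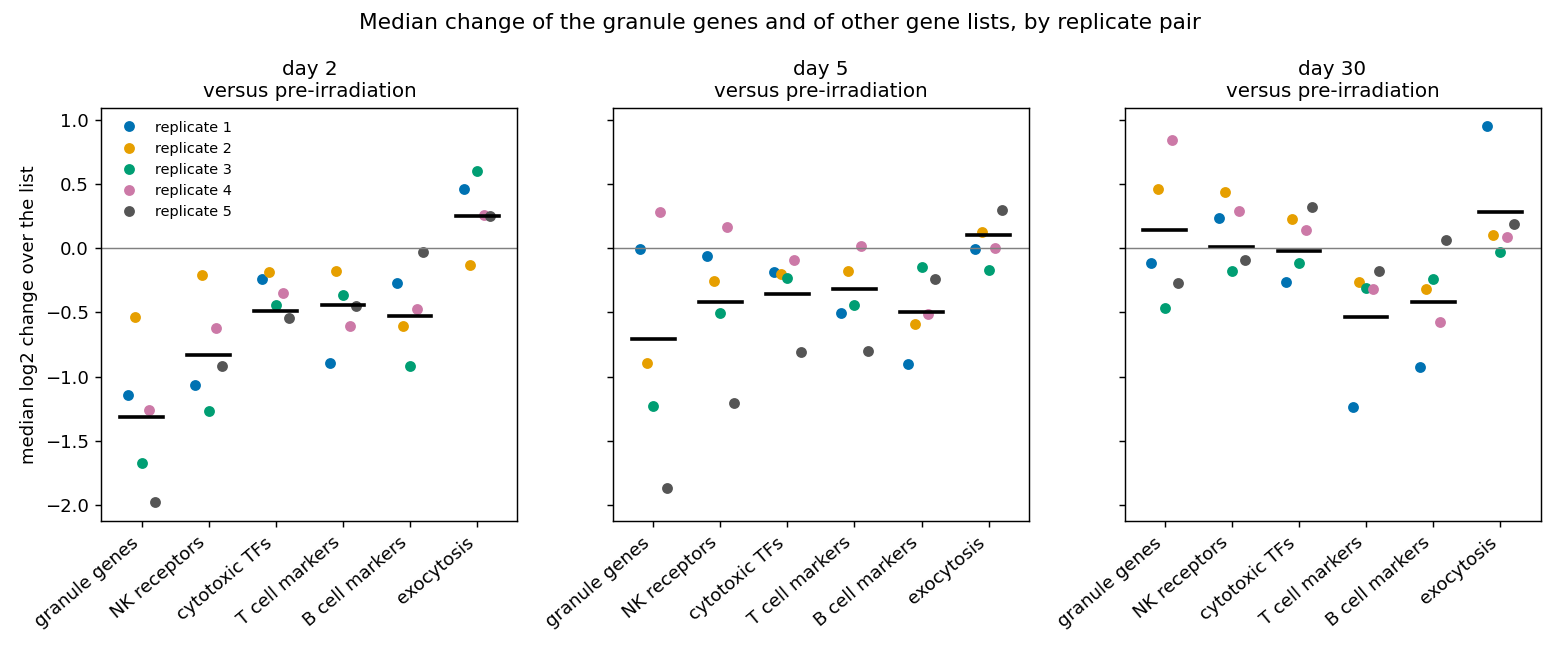
Median log2 change from pre-irradiation (y axis) of the granule genes, NK and killer receptors, cytotoxic transcription factors (TFs), T cell markers, B cell markers and the exocytosis machinery (x axis) at days 2, 5 and 30, with 1 point per replicate pair and a black bar for the list's median. The granule genes lie lowest at day 2 (-1.31) and around 0 at day 30 (0.14), where T cell markers stand at -0.54.

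Markers of other blood cells moved in the same comparisons. The 9 monocyte markers had a median log2 change of 0.85 at day 2, the 9 neutrophil markers 1.03 and the 8 platelet markers 1.53, with all members of the 3 lists higher. Of the monocyte markers, the complement genes C1QA, C1QB and C1QC were called higher, where 0.0551% of all probes were called. The mean level of the platelet list lay at -0.34 to 1.43 on the pre-irradiation arrays and at 1.63 to 3.46 on the day 2 arrays. That of the monocyte list lay at 1.11 to 2.03 and then 2.14 to 3.28, and that of the neutrophil list at -0.11 to 1.97 and then 0.86 to 2.67. The 11 B cell markers were all lower at day 2, with a median of -0.53, and list means of 2.35 to 2.94 before and 1.35 to 2.44 at day 2. At day 30 platelet markers were at -0.066, monocyte markers at 0.50 and neutrophil markers at 0.98. The mean level of the 10 granule genes was 1.90 to 2.87 before irradiation, 0.58 to 1.42 at day 2, 0.70 to 2.56 at day 5 and 2.27 to 2.97 at day 30. What part the shifts of other cells had in the levels of the granule genes was not tested. Defining markers of whole blood were present, as CD3E, CD14 and CSF3R all passed the filter, while the B cell genes MS4A1 and PAX5 and the neutrophil genes ELANE and MMP8 did not.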

How the data were processed

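Whole blood RNA of 20 samples was read on 1-color Agilent Whole Human Genome 4x44K v2 arrays. Per the file headers the scanner tables came from Feature Extraction 12.0.2.2 (10.7 in the submitters' processing notes). The authors deposited them with processed intensity that is background subtracted and detrended but not normalized between arrays, and a table of log2 values. That deposited table holds log2 values of 5884 of the probes. On every array at least 96.9% of them equal the log2 processed intensity plus a constant within 0.001, and how the constant was set is not stated. Array medians of that table ran from 7.55 to 7.83. Spots flagged as outliers were left out (0.619% to 1.12% per array), spots of 1 probe were averaged, and the 75th percentile over 34127 non-control probes was subtracted.

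Each comparison used its own 10 arrays in limma 3.58.1 (R 4.3.3) with the replicate number as a block, on 19961 probes that at least 5 arrays had well above background and at least 4 pairs measured. The study's methods pair samples by animal. Deviations of same-numbered arrays correlated with medians of 0.175 to 0.395 over the 6 pairs of groups, and those of arrays sharing a slide at -0.023. The lowest single value for same-numbered arrays was -0.16, between day 2 and day 30. The closest array of the other group bore the same number for 2 of 5 arrays (day 2 and day 5) up to 5 of 5 (pre-irradiation and day 5). Two-sided p-values of these fits set the mean difference against the spread of differences between pairs, which limma moderates over all probes. The scripts were tested on simulated data. Members and gene lists were chosen with earlier results of these data known. The text names all 10 members in 6 comparisons, the 8 genes most like their mean, and from each of 13 lists the called genes and up to 4 with the smallest p at day 2 or from day 2 to day 30. Lists use 1 probe per gene, the brightest. A few genes that this rule names are not reported here. The alternatives were other normalization (quantile, median), normexp with offset 50, other filters, the deposited table, unpaired, all-array and slide-blocked fits, an intensity trend, single-probe paired tests, a 5% false discovery rate and leaving out each replicate. Leaving out the day 5 replicate 3 array was chosen after seeing the data. Figures were drawn with matplotlib 3.10.9. Array number and signal over background limit the precision.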

Additional observations from a re-analysis of the deposited data

Results flagged for a closer look

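Among 40 sets of 5 levels (10 genes in 4 groups), 4 held an array far from the other 4. The limit used marks about 1 in 20 sets of independent, normally spread values. These sets share arrays and their genes correlate, so the count cannot be set against that rate. In PRF1 the arrays marked were the pre-irradiation array of replicate 2, with a level of -0.43 against 0.71 to 1.04 on the others, and the day 2 array of replicate 5, at -1.63 against -0.78 to -0.48. The pre-irradiation array of replicate 2 stood apart for GNLY too, at 3.60 against 4.87 to 5.20. For GZMB the day 30 array of replicate 4 was high, at 7.35 against 6.38 to 6.65.

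The day 2 and day 30 levels, each compared with the same pre-irradiation arrays, differed in a direct test for 2 members. The log2 difference was 2.53 for GZMA and 1.93 for GZMK, higher at day 30 in 5 of 5 pairs for both (limma adjusted p = 0.0959 for each).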

How the results depend on the processing

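The direction of the members' median was kept under every alternative at day 2, at day 5 and in the comparisons among days 2, 5 and 30, and every such median moved by less than the spread between pairs. At day 30 against pre-irradiation the median of 0.14 was -0.013 under normexp correction and ran from -0.049 to 0.32 with single replicates left out, so that it has no settled sign. Counts of called members depended on the fit. At day 2, where none of the 10 was called, 6 were among probes well above background on all 20 arrays (9 members tested; 1.36% of all probes called), 8 in the deposited log2 values (5653 probes tested, 5.78% called), 6 in 1 fit of all arrays (1.84% called) and 7 with an intensity trend (1.09% called), and 0 to 9 with a replicate left out, the 9 without replicate 2 (3.41% called). At day 30 against pre-irradiation the count of 0 became 1, GZMK, under normexp correction, the all-array filter, the deposited values and the intensity trend, where 4.5%, 4.21%, 5.91% and 2.02% of all probes were called. From day 2 to day 30 the 2 calls became 6 in the deposited values (0.995% of probes called) and in 1 fit of all arrays (0.892%), and 0 with no filter, with slide as a block, with the single-probe paired test and at a 5% false discovery rate, and ran from 0 to 3 with a replicate left out. The cause was not tested.

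Without the replicate block the median log2 changes stayed at -1.31 at day 2 and 1.53 from day 2 to day 30, and 2 members were called in the latter, GZMK and FASLG (adjusted p = 0.0324 for each) in place of GZMA. Pairing changed no other call of a member.

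Small changes of single genes turned sign. From day 5 to day 30, CTSW was 0.030 under median scaling and ran from -0.45 to 0.073 with a replicate left out, and GZMM was -0.10 under normexp correction, -0.037 without the day 5 replicate 3 array and -0.19 to 0.32 with a replicate left out. Under normexp correction GNLY at day 30 against pre-irradiation was -0.058 and FASLG from day 2 to day 5 was -0.059. With a replicate left out, day 30 changes from pre-irradiation ran from -0.45 to 0.17 for NKG7 and from -0.12 to 0.37 for GZMH. Of all single-gene values, 899 of 984 kept direction and side of the threshold.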

Other observations

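A few genes of the same lists had their larger differences at day 30 rather than at day 2, as values with none called. LYST, whose loss gives giant granules in cytotoxic cells, had a log2 change from pre-irradiation of 0.46 ± 0.19 (SE, adjusted p = 0.327) at day 2 and 0.82 ± 0.21 (SE, adjusted p = 0.153) at day 30. IL12RB1, a chain of the IL-12 receptor, was near its starting level at day 2 (-0.17 ± 0.26 SE, adjusted p = 0.788) and lower in 5 of 5 pairs at day 30 (-0.75 ± 0.23 SE, adjusted p = 0.181). STAT5B, which carries IL-2 and IL-15 signals, was higher in 5 of 5 pairs at day 30, at 0.67 ± 0.19 (SE, adjusted p = 0.166). The fractalkine receptor CX3CR1, typical of effector cells, was at -0.0042 ± 0.22 (SE, adjusted p = 0.995) at day 2 and 0.46 ± 0.20 (SE, adjusted p = 0.293) at day 30. CCL5, a chemokine stored in cytotoxic cells and in platelets, did not share that course. Its log2 change was -0.41 ± 0.23 (SE, adjusted p = 0.437) at day 2 and -0.0089 ± 0.34 (SE, adjusted p = 0.995) from day 2 to day 30.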
